A study of Mus musculus with 18 samples.

Results

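The genes described here are 9 members of the matrix metalloprotease system, the proteases Mmp2, Mmp3, Mmp7, Mmp9, Mmp12 and Mmp14 and the inhibitors Timp1, Timp2 and Timp3. They were chosen by name from the platform's gene annotation, where each had 1 probe set with a single symbol, and they are 9 of the 19938 genes tested. Transcripts were measured on 18 arrays of lung terminal bronchiolar epithelial cells, taken from mice of a mixed FVB/N and C57BL/6 background. The mice were controls or Cebpa d/d, and both genotypes received naphthalene, a compound that injures the club cells of the airway. Arrays were made at 0, 3 and 72 hr, with 3 arrays in each of the 6 groups. Every group, the 0 hr groups included, carries the naphthalene label. Cebpa encodes C/EBPα, a transcription factor of the airway and alveolar epithelium. The labels used here do not say how the d/d allele was made, which cells carry it or how old the mice were. They number the arrays of a group without saying that each came from its own animal, so the p-values below measure the spread between these arrays, which may be technical.

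Matrix metalloproteases are zinc-dependent endopeptidases that cleave collagens, elastin, proteoglycans and cell-surface proteins, and most are secreted as inactive proenzymes. The TIMPs bind their active sites and block them. Mmp14, which is anchored in the membrane, forms a complex with Timp2 that activates the proenzyme of Mmp2, so Timp2 serves both as inhibitor and as part of an activation step. In lung, Mmp2 and Mmp14 are made largely by mesenchymal cells, Mmp12 is the elastase of macrophages, Mmp9 is stored by neutrophils and Mmp7 is made by injured epithelium.

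Upstream sequences from RefSeq were matched for 7 of the 9 genes (Mmp3, Mmp7, Mmp12, Mmp14, Timp1, Timp2 and Timp3). They are printed for the members whose levels the results turn on and for Mmp3 and Mmp7 of chromosome 9, which each had a window with all 4 motifs. Each is the 250 bases before the annotated start in GRCm38.p6, 5′ to 3′ on the gene's strand, with motif letters in capitals. The motifs searched on both strands were AP-1 (TGANTCA), C/EBP (TTGCNNAA), ETS (AGGAAG) and the TATA box (TATAAA). Of 32851 such windows, 6.75% held the AP-1 letters, 9.56% the C/EBP letters, 29.5% the ETS letters and 12.4% the TATA letters. The windows are Mmp14 chr14:54431348-54431597 (plus strand), Timp1 chrX:20869916-20870165 (plus), Timp2 chr11:118355412-118355661 (minus), Mmp3 chr9:7445572-7445821 (plus) and the first of the 2 starts of Mmp7, chr9:7691840-7692089 (plus).
Mmp14: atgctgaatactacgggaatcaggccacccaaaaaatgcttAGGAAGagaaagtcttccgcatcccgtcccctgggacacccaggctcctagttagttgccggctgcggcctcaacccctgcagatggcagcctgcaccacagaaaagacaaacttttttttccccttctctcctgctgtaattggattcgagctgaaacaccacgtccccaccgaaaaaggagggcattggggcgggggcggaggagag
Timp1: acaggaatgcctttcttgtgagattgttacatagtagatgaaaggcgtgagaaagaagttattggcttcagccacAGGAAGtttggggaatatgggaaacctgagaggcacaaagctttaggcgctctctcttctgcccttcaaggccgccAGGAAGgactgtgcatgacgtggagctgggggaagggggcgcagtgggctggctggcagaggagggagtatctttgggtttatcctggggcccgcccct
Timp2: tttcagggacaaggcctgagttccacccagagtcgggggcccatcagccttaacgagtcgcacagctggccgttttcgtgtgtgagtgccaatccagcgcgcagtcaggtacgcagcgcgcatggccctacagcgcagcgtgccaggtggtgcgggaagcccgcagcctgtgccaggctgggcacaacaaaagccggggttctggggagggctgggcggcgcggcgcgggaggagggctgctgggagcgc
Mmp3: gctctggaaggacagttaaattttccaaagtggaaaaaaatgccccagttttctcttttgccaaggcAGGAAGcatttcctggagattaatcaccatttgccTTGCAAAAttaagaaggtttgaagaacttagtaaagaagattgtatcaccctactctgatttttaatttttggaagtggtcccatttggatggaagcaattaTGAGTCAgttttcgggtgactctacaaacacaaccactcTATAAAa
Mmp7: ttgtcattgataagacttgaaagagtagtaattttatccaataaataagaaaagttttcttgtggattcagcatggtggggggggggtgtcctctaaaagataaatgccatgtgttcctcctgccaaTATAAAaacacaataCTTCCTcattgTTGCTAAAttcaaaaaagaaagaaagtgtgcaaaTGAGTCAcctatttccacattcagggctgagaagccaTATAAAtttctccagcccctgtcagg
The Mmp3 window and the first Mmp7 window each held all 4 motifs, and the second Mmp7 window held ETS letters only. The TATA letters began 7 bases before the start of Mmp3, and 123 and 26 bases before the first start of Mmp7. The AP-1 letters began 46 bases before the start of Mmp3 and 63 before that of Mmp7, and the C/EBP letters 148 and 97 bases before. Mmp12, on the same chromosome, held AP-1 letters before 1 of its 2 starts and C/EBP letters before the other. Mmp14 held ETS letters 209 bases before its start, Timp1 held them at 175 and 99 bases, and Timp3 at 204. Timp2 held none of the 4. A match is a description of these letters and was not tested as a binding site.

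Values are log2 levels, and a difference of 1 is a doubling. A difference was tested with limma over all genes and called at a Benjamini-Hochberg adjusted p under 0.05. Differences are given with the standard error. Levels are not compared between genes, since probe sets differ in brightness. Within a group, arrays correlated at 0.973 to 0.992 over all probe sets. Cebpa, the targeted gene, was lower in Cebpa d/d arrays by 1.58 ± 0.24 averaged over the 3 times (adjusted p = 0.00953). The array labelled control 0 hr replicate 1 went against its label. It read 7.89 for Cebpa, where the other control arrays read 9.69 to 10.52 and the Cebpa d/d arrays 7.83 to 9.07. The array labelled Cebpa d/d 72 hr replicate 1 stood apart from its group, with the club cell gene Cyp2f2 at 13.11, where the other 72 hr arrays of both genotypes read 12.41 to 12.62. Calls of the 9 genes that turn on either array are given with and without it. Counts over the marker and related lists are given with all arrays only. The club cell markers Cyp2f2, Scgb1a1 and Aldh1a1 had mean levels of 12.98, 12.76 and 12.28. The arrays also carried signal for other lung cells. Sftpc of alveolar type 2 cells averaged 13.17, Dpt and Dcn of fibroblasts 11.36 and 10.92, Acta2 of smooth muscle 11.30 and Ctss of macrophages 9.11. Whether the arrays of 1 group held more or fewer cells of a type, or cells with more or less RNA, cannot be told apart.

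The clearest changes in the group were the rises of Mmp2 and Mmp14 by 72 hr. Mmp2, gelatinase A, read 9.72, 9.07 and 9.25 in the control 0 hr arrays, 9.03, 9.06 and 8.48 at 3 hr, and 10.48, 10.08 and 10.13 at 72 hr. All 3 control arrays at 72 hr lay above all control arrays of the earlier times. The difference from 0 hr was 0.89 ± 0.18 (1.85-fold, adjusted p = 0.00695) and the difference from 3 hr was 1.38 ± 0.18 (2.59-fold, adjusted p = 0.000116). Both calls held in each of the 18 fits that left out 1 array. The Cebpa d/d arrays read 9.44, 9.52 and 9.63 at 0 hr, 9.49, 9.54 and 9.52 at 3 hr, and 10.04, 10.05 and 10.52 at 72 hr. Again the 72 hr arrays did not overlap with the earlier ones. Mmp2 rose there by 0.67 ± 0.18 against 0 hr (adjusted p = 0.0402) and by 0.69 ± 0.18 against 3 hr (adjusted p = 0.025). The Cebpa d/d calls were less secure. The call against 0 hr held in 10 of 18 fits that left out 1 array. Leaving out any 1 array of the Cebpa d/d 0 or 3 hr groups, or Cebpa d/d 72 hr replicate 2 or 3, ended it, and the adjusted p reached 0.196 without Cebpa d/d 72 hr replicate 3. The call against 3 hr held in 14 of 18, and ended without any 1 of the Cebpa d/d 3 hr arrays or without Cebpa d/d 72 hr replicate 3 (adjusted p up to 0.134). The differences ran in the same direction in all of these fits, 0.51 to 0.75 against 0 hr and 0.53 to 0.77 against 3 hr.

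Mmp14, the membrane-type protease that activates pro-Mmp2, read 8.24, 7.28 and 7.83 in the control 0 hr arrays, 7.29, 8.04 and 7.87 at 3 hr, and 8.68, 8.79 and 8.75 at 72 hr. The control 72 hr arrays lay close together and above all 6 earlier control arrays, which spread widely. Mmp14 rose in control by 0.95 ± 0.22 against 0 hr (1.94-fold, adjusted p = 0.0162) and by 1.0 ± 0.22 against 3 hr (2.01-fold, adjusted p = 0.00557). The call against 0 hr was lost without control 0 hr replicate 2 (adjusted p = 0.0826), control 72 hr replicate 2 (0.0663) or control 72 hr replicate 3 (0.0506), and the call against 3 hr was kept in all 18 such fits. Mmp14 in Cebpa d/d read 7.92, 7.94 and 7.90 at 0 hr, 8.03, 7.91 and 8.17 at 3 hr, and 8.21, 8.82 and 8.98 at 72 hr. The lowest of these 72 hr values, from the array that stood apart, was still above all 6 earlier Cebpa d/d arrays. The differences of 0.75 ± 0.22 against 0 hr (adjusted p = 0.0664) and 0.64 ± 0.22 against 3 hr (adjusted p = 0.0942) did not pass. Without Cebpa d/d 72 hr replicate 1 they were 0.98 (adjusted p = 0.0136) and 0.87 (adjusted p = 0.023), and both passed. The difference from 0 hr, at the same 0.75, also passed when a control array was left out of the shared estimate of spread, either control 0 hr replicate 1 (adjusted p = 0.0356), control 0 hr replicate 2 (0.0334) or control 3 hr replicate 1 (0.0396). The change of Mmp14 from 0 to 72 hr was not shown to differ between the genotypes, with an interaction of -0.20 ± 0.32 (95% interval -0.87 to 0.47, adjusted p = 1).

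**Figure D1:**
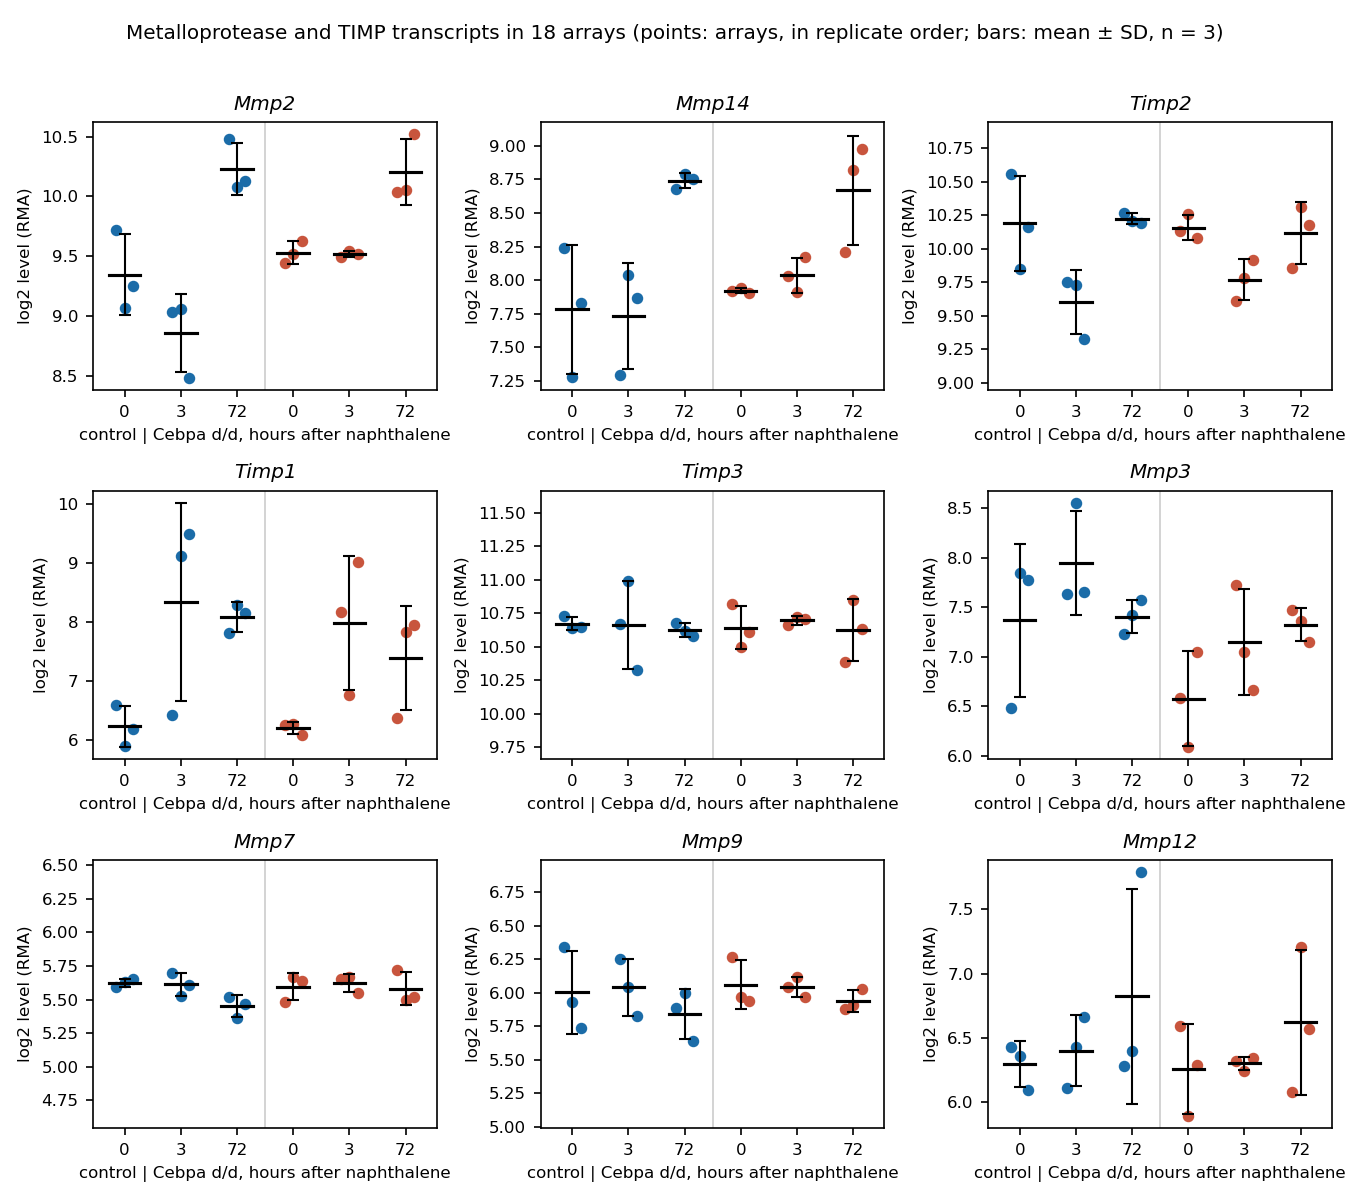
Log2 level of each of the 9 genes (vertical axes, 1 panel a gene) in the 18 arrays, by genotype and time after naphthalene. Points are arrays in replicate order and bars are the group mean ± SD of 3 arrays. Mmp2 and Mmp14 are highest at 72 hr in both genotypes, Timp2 is lowest at 3 hr, and Timp1 spreads from 6.42 to 9.49 among the control arrays at 3 hr.

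The inhibitors did not follow a common course. Timp2, which inhibits Mmp2 and also takes part in its activation, read 10.56, 9.85 and 10.16 in control at 0 hr, 9.75, 9.73 and 9.33 at 3 hr, and 10.27, 10.21 and 10.19 at 72 hr. The 3 hr arrays were the lowest, below every control array of the other times. The rise from 3 to 72 hr of 0.62 ± 0.16 passed (1.53-fold, adjusted p = 0.0136), while the earlier difference, -0.59 ± 0.16 from 0 to 3 hr, did not pass (adjusted p = 0.0541). From 0 to 72 hr the net difference was 0.03 ± 0.16. The rise from 3 to 72 hr was lost without control 3 hr replicate 3 (adjusted p = 0.0768). The difference from 0 to 3 hr passed in 3 of those fits, which left out control 0 hr replicate 2 (adjusted p = 0.0193), control 3 hr replicate 1 (0.0377) or Cebpa d/d 72 hr replicate 1 (0.0456). Timp2 in Cebpa d/d read 10.13, 10.26 and 10.08 at 0 hr, 9.61, 9.78 and 9.92 at 3 hr, and 9.86, 10.31 and 10.18 at 72 hr. The 3 hr arrays again lay below all 0 hr arrays but overlapped with those at 72 hr. Neither the difference of -0.39 ± 0.16 to 3 hr (adjusted p = 0.211) nor that of 0.34 ± 0.16 from 3 to 72 hr (adjusted p = 0.225) passed. The latter passed with array weights (0.43, adjusted p = 0.0125) and without both arrays that stood apart (0.47, adjusted p = 0.041).

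Timp1, the inhibitor most strongly induced by injury and inflammation in many tissues, had the largest differences of the 9 genes and the largest spread. The control arrays read 6.60, 5.90 and 6.19 at 0 hr, 6.42, 9.12 and 9.49 at 3 hr, and 7.81, 8.29 and 8.16 at 72 hr. At 3 hr, 2 of the 3 arrays were far above the 0 hr range and replicate 1 lay inside it. The Cebpa d/d values were 6.26, 6.27 and 6.09 at 0 hr, 8.18, 6.76 and 9.02 at 3 hr, and 6.37, 7.83 and 7.96 at 72 hr. All Cebpa d/d arrays at 3 and 72 hr exceeded those at 0 hr, though replicate 1 at 72 hr only just did so. No Timp1 difference passed. From 0 to 3 hr it was 2.12 ± 0.64 in control (95% interval 0.75 to 3.48, adjusted p = 0.0779) and 1.78 ± 0.64 in Cebpa d/d (adjusted p = 0.146). From 0 to 72 hr it was 1.86 ± 0.64 in control (adjusted p = 0.0947) and 1.18 ± 0.64 in Cebpa d/d (adjusted p = 0.375). Without Cebpa d/d 72 hr replicate 1 the latter difference was 1.69 and did not pass either. Single arrays decided the call at 3 hr. Without control 3 hr replicate 1 the control difference was 3.08 (adjusted p = 0.00234), and without Cebpa d/d 3 hr replicate 2 the Cebpa d/d difference was 2.39 (adjusted p = 0.0484). The Cebpa d/d difference, at the same 1.78, also passed when control 3 hr replicate 1 was left out of the shared estimate of spread (adjusted p = 0.0324). The 0 to 72 hr difference in control passed in a fit of its own 2 groups (adjusted p = 0.00149), with array weights (0.0206) and without control 3 hr replicate 1 (0.0198).

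The 3 hr arrays with low Timp1 were low for some injury genes and not for others. For Plaur, the urokinase receptor, control replicate 1 read 7.24 and Cebpa d/d replicate 2 read 8.01, where the other 3 hr arrays read 8.92 to 9.41. For Akr1b8, an aldo-keto reductase, they read 8.62 and 8.80 against 10.71 to 11.08. Akr1b8 is 1 of the 3 genes most like Timp1 over these same 18 arrays (r = 0.952). Its low readings there follow from that likeness and add nothing independent. Hmox1, a heme oxygenase of the oxidative stress response, was as high in them, at 12.15 and 12.32, as in the other 3 hr arrays at 11.72 to 12.21. The mean of the 11 neutrophil genes measured was 7.02, 6.06 and 7.24 in the control 3 hr arrays, where Timp1 read 6.42, 9.12 and 9.49. It was 6.16, 6.61 and 6.67 in the Cebpa d/d 3 hr arrays, where Timp1 read 8.18, 6.76 and 9.02. Over the 18 arrays, which share their groups, r was 0.46. The part of neutrophils in the Timp1 level was not tested. Timp1 lies on the X chromosome, and by Xist and Eif2s3y 1 of 3 arrays was female in each group at 0 and 3 hr and 3 of 3 were female in both 72 hr groups. With sex as a covariate the Timp1 difference from 0 to 72 hr was 1.96 in control (adjusted p = 0.168). With that covariate Mmp2 stayed called in control at 72 hr (0.88, adjusted p = 0.027), and the control difference of Mmp14 from 0 to 72 hr was 0.90 and no longer passed (adjusted p = 0.0645). Both Mmp2 calls in Cebpa d/d were lost with it, at 0.66 against 0 hr (adjusted p = 0.115) and 0.68 against 3 hr (adjusted p = 0.0756).

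Timp3, the matrix-bound inhibitor that also blocks ADAM proteases, had the narrowest range of group means of the 9 genes, from 10.62 to 10.70. Its 18 values ran from 10.33 to 10.99, and its tested differences between groups from -0.07 to 0.05. The 95% interval for the change from 0 to 72 hr was -0.34 to 0.24 in control and -0.31 to 0.27 in Cebpa d/d, which bounds any change there.

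Mmp3, stromelysin 1, showed the largest difference between genotypes among the proteases, without passing. It read 6.48, 7.85 and 7.78 in the control 0 hr arrays and 6.59, 6.09 and 7.05 in the Cebpa d/d 0 hr arrays. At 3 hr the values were 7.63, 8.55 and 7.65 in control and 7.73, 7.05 and 6.67 in Cebpa d/d, and at 72 hr 7.23, 7.42 and 7.57 against 7.47, 7.36 and 7.15. The genotypes overlapped at all 3 times, most closely at 72 hr. At 0 hr the low control value came from replicate 1, the array whose Cebpa level went against its label, and the other control arrays lay above all Cebpa d/d arrays. The difference of Cebpa d/d from control was -0.79 ± 0.35 at 0 hr (adjusted p = 0.549), -0.79 ± 0.35 at 3 hr (adjusted p = 0.977) and -0.08 ± 0.35 at 72 hr (adjusted p = 0.986). Without control 0 hr replicate 1 the 0 hr difference was -1.23 (adjusted p = 0.0874) and the mean over the 3 times -0.70 (adjusted p = 0.0571), against -0.56 ± 0.20 (adjusted p = 0.374) with it. Mmp3 did not pass in any time comparison either. The Cebpa d/d arrays at 0 hr also carried more cardiac muscle signal than the control arrays, as given below. The part of that signal in the Mmp3 difference was not tested.

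The remaining proteases were dim, and none of them passed in any comparison. Mmp7, matrilysin, ran from 5.36 to 5.72 and Mmp9, gelatinase B, from 5.64 to 6.34, and both were below the median of their own array in all 18 arrays. At such levels RMA values compress differences, so a change in either may not be detectable here. Mmp12 was below the array median in 14 of 18 arrays and ran from 5.89 to 7.79. Its 2 highest values were at 72 hr, 7.79 in control replicate 3 and 7.21 in Cebpa d/d replicate 2, and its difference from 0 to 72 hr was 0.53 ± 0.32 in control (adjusted p = 0.385) and 0.37 ± 0.32 in Cebpa d/d (adjusted p = 0.634).

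**Figure D2:**
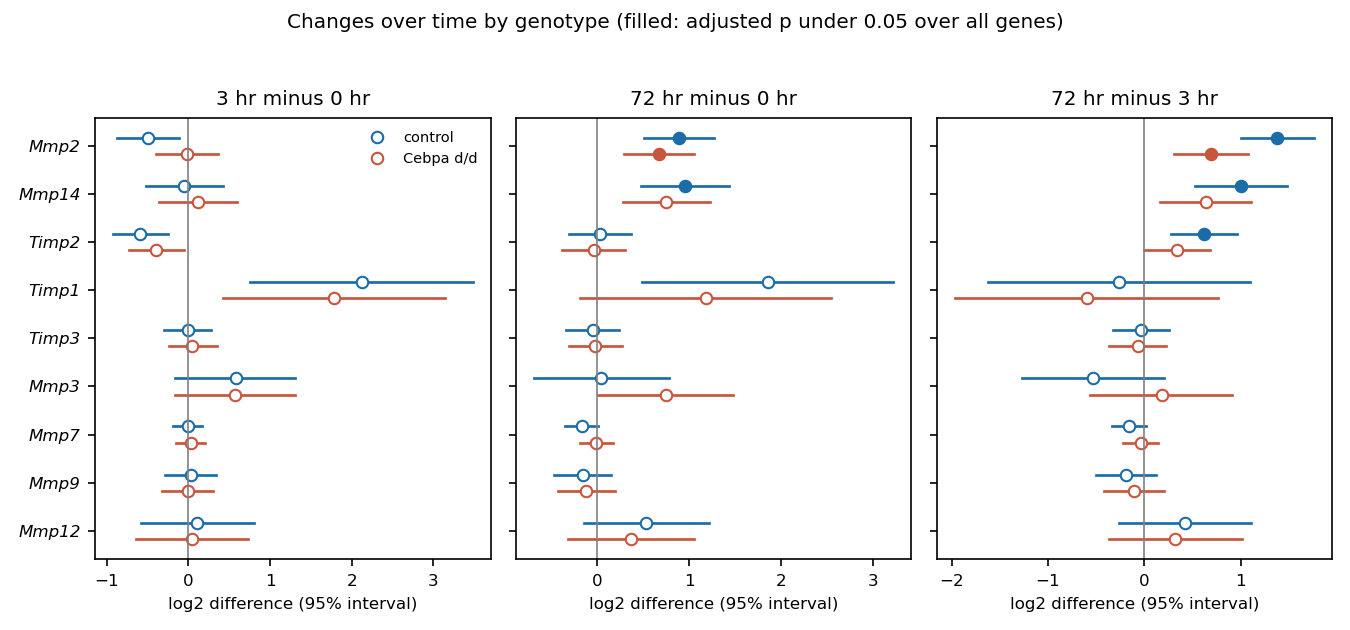
Log2 difference of each gene from 0 to 3 hr, 0 to 72 hr and 3 to 72 hr in control and Cebpa d/d (horizontal axis), with 95% intervals from limma and filled points for an adjusted p under 0.05. In control, Mmp2 lies at 0.89 and Mmp14 at 0.95 at 72 hr against 0 hr, Mmp2 lies at 1.38 against 3 hr, and the intervals of Timp1 are the widest.

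Counted over the 9 genes, 0 passed from 0 to 3 hr in either genotype, with 3 at an unadjusted p under 0.05 in control and 2 in Cebpa d/d. Over all genes limma called 3.5% in control and 4.38% in Cebpa d/d in that comparison, and 21% and 17.2% had an unadjusted p under 0.05. From 0 to 72 hr, 2 of 9 rose in control (Mmp2 and Mmp14), where 7.15% of all genes passed and 4.95% were higher. Only Mmp2, 1 of 9, rose in Cebpa d/d, where 4.8% passed and 3.39% were higher. From 3 to 72 hr, 3 of 9 rose in control (Mmp2, Mmp14 and Timp2), against 19.7% of all genes called and 11.2% higher, and 1 of 9 in Cebpa d/d (Mmp2), against 8.55% called and 4.88% higher. None of the 9 fell in these 4 comparisons by limma. At an unadjusted p under 0.05, 3 of 9 differed in each of them, against 21.1% and 17.5% of all genes from 0 to 72 hr and 35.5% and 21.4% from 3 to 72 hr, control first. The median difference of the 9 from 0 to 72 hr was 0.04 in control and 0.37 in Cebpa d/d, and that of all genes was -0.02 in both. The comparisons of 72 hr with 0 and with 3 hr share the 72 hr arrays.

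Groups that did not overlap were common across the array. From 0 to 72 hr in control, 4 members did not overlap (Mmp2, Mmp7, Mmp14 and Timp1), as did 25.5% of all genes. The same held for 4 members in Cebpa d/d (Mmp2, Mmp3, Mmp14 and Timp1), against 23.5%. From 3 to 72 hr, 5 members did not overlap in control (Mmp2, Mmp3, Mmp7, Mmp14 and Timp2), against 40.3%, and 2 in Cebpa d/d (Mmp2 and Mmp14), against 28.3%. From 0 to 3 hr, 2 did not in control (Mmp2 and Timp2), against 20.3%, and 2 in Cebpa d/d (Timp1 and Timp2), against 22.7%.

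The comparison of genotypes asks whether the 9 genes differed with Cebpa genotype at each time. In limma's test 0 of the 9 genes passed at 0, 3 or 72 hr or in the mean over the times, where 0.336%, 0.015%, 0.0702% and 0.306% of all genes were called. Cebpa itself passed only in the mean, so a gene that did not pass at a single time may still differ there. At an unadjusted p under 0.05 the counts were 1, 2, 0 and 2 of 9, against 8.53%, 5.02%, 6.31% and 8.57% of all genes. Mmp2 at 3 hr was the 1 case without overlap, where 9.79% of all genes did not overlap. At 0 and 72 hr 0 members were free of overlap, against 11.4% and 15.1% of all genes. The Cebpa d/d arrays read 9.49 to 9.54 and the control arrays 8.48 to 9.06, a difference of 0.66 ± 0.18 (unadjusted p = 0.00194, adjusted p = 0.68). It was 0.19 ± 0.18 at 0 hr and -0.03 ± 0.18 at 72 hr (95% interval -0.41 to 0.35), when Mmp2 averaged 10.23 ± 0.22 in control and 10.20 ± 0.27 in Cebpa d/d (SD, n = 3 each).

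The interactions ask whether a time change differed between genotypes. For the change from 0 to 3 hr limma called 0 of the 9 genes, with 0 at an unadjusted p under 0.05, against 0% and 6.85% of all genes. For the change from 0 to 72 hr it also called 0, with 0 at an unadjusted p under 0.05, against 0.0953% and 4.47%. A further contrast, chosen after the values were seen, compared the change from 3 to 72 hr. There Mmp2 rose less in Cebpa d/d by 0.69 in the point estimate (-0.69 ± 0.25, 95% interval -1.23 to -0.15, unadjusted p = 0.0152), and the adjusted p of 0.813 did not pass. It was the only member at an unadjusted p under 0.05 there, against 6.06% of all genes, and 0.01% of all genes were called. The interaction of Timp1 was -0.34 ± 0.91 for 3 hr and -0.68 ± 0.91 for 72 hr, too imprecise to place a useful bound. Without Cebpa d/d 72 hr replicate 1 the point estimate for 72 hr was -0.17.

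Some genes of related lists changed at 3 hr. Of 11 genes listed for the plasminogen system and its neighbours, 8 were measured. Among these, Plaur and F3 rose from 0 to 3 hr in both genotypes. Plaur rose by 1.83 ± 0.43 in control (adjusted p = 0.0272) and 1.80 ± 0.43 in Cebpa d/d (adjusted p = 0.0229). F3, tissue factor, which starts blood coagulation and has no part in making plasmin, rose by 1.29 ± 0.14 (adjusted p = 0.000104) and 1.34 ± 0.14 (adjusted p = 3.33e-05), and both genes fell again from 3 to 72 hr in both genotypes. Of 15 regulators of the AP-1, ETS and related families measured, 5 rose at 3 hr in control and the same 5 in Cebpa d/d. All were AP-1 subunits (Fos, Fosb, Fosl1, Jun and Junb). Of all genes, 3.5% and 4.38% were called from 0 to 3 hr, higher or lower. Fosl1 rose by 1.39 ± 0.28 in control and 1.70 ± 0.28 in Cebpa d/d, and Fos by 1.12 ± 0.22 and 1.67 ± 0.22. The medians of these regulators at 3 hr were 0.35 and 0.34, against 0.03 and -0.02 for all genes.

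Of the 16 other matrix metalloproteases measured, Mmp23, a membrane-anchored protease, was the 1 gene that rose in both genotypes at 72 hr. Against 0 hr the rise was 0.61 ± 0.13 in control (adjusted p = 0.0109) and 0.59 ± 0.13 in Cebpa d/d (adjusted p = 0.0152). Mmp13, a collagenase, fell from 3 to 72 hr in both genotypes (-0.33 in control and -0.32 in Cebpa d/d), with group means of 4.93 to 5.36 at these times, a dim range in which differences are compressed. Mmp21 and Mmp25 fell from 3 to 72 hr in control (-0.48 and -0.28), and their change was not shown to differ between genotypes (interaction adjusted p = 0.942 and 0.815). Of 7 genes listed as other inhibitors, Timp4 rose from 3 to 72 hr in control by 0.91 ± 0.19 (adjusted p = 0.00355), as did Pcolce, which enhances procollagen C-proteinase rather than inhibiting it, by 0.89 ± 0.18 (adjusted p = 0.00239). Pzp, a protease inhibitor of the alpha-macroglobulin family, fell in the same comparison (-0.41 ± 0.14, adjusted p = 0.045). Reck, a membrane-anchored inhibitor of several metalloproteases, fell from 0 to 3 hr in Cebpa d/d (-0.58 ± 0.15, adjusted p = 0.0343). Of 15 ADAM and ADAMTS proteases measured, Adamts12 rose from 0 to 72 hr in control by 0.50 ± 0.10 (adjusted p = 0.00759). It also rose from 3 to 72 hr in both genotypes. Adamts4, an aggrecanase, rose from 0 to 3 hr in control by 0.89 ± 0.20 (adjusted p = 0.0213). Of 10 activators and cofactors, Tspan12, a tetraspanin, fell in control from 0 to 72 hr (-1.17 ± 0.25, adjusted p = 0.00958). Cd9, another tetraspanin, rose from 0 to 72 hr in Cebpa d/d by 0.62 ± 0.14 (adjusted p = 0.0156). It also rose in control, from 3 to 72 hr. Of all genes in control, 3.5% were called from 0 to 3 hr, 7.15% from 0 to 72 hr and 19.7% from 3 to 72 hr. In Cebpa d/d the shares were 4.38%, 4.8% and 8.55%. Beside these shares, 1 call in a list of this size is not read as a result about the list.

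Some genes for the substrates of these enzymes rose in the comparisons in which Mmp2 was called, of which Mmp14 was called only in those of control. Of 17 matrix and adhesion genes measured, 6 rose and 0 fell from 0 to 72 hr in control, where 4.95% of all genes were higher, with a median of 0.40 against -0.02 for all genes. In Cebpa d/d 3 rose and 0 fell, where 3.39% of all genes were higher, with a median of 0.17 against -0.02. From 3 to 72 hr, 9 rose in control and 7 in Cebpa d/d, where 11.2% and 4.88% of all genes were higher, with medians of 0.52 and 0.48 against -0.07 and 0. Sdc1, a heparan sulfate proteoglycan of epithelium, rose from 0 to 72 hr by 0.54 ± 0.11 in control (adjusted p = 0.00592) and 0.46 ± 0.11 in Cebpa d/d (adjusted p = 0.0179). Fn1, fibronectin, rose by 1.20 ± 0.33 in control (adjusted p = 0.0347). Col6a1 rose from 3 to 72 hr by 0.97 ± 0.13 in control (adjusted p = 0.000123) and 0.49 ± 0.13 in Cebpa d/d (adjusted p = 0.0243). Limma called 0 genes of the 7 related lists in any comparison of genotypes at one time or averaged over times, or in the interactions for 3 and 72 hr against 0 hr, so a gene given above for 1 genotype was not shown to differ between them.

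**Figure D3:**
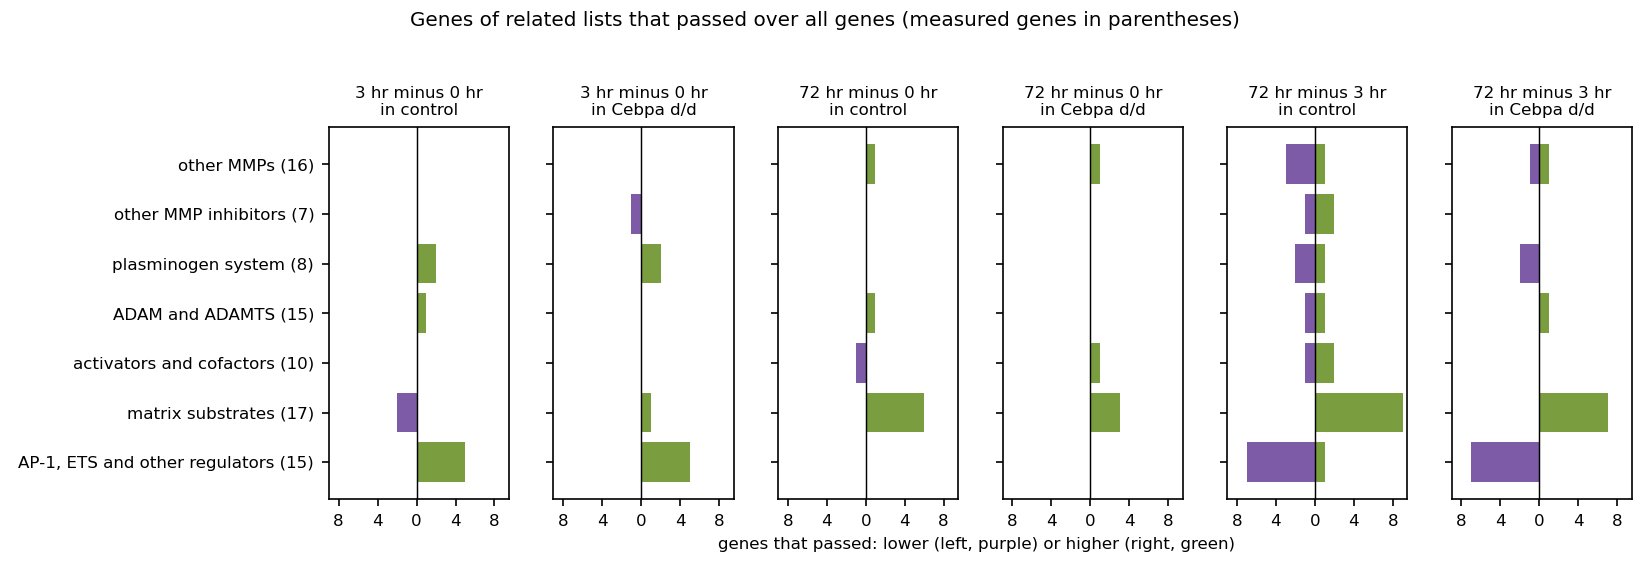
Number of genes higher or lower (limma, adjusted p under 0.05) in the 7 related gene lists (rows, with the number measured), as bars to the right or left of 0, for each time comparison in control and Cebpa d/d. At 3 hr 5 regulators were higher in each genotype. Matrix genes higher numbered 6 in control and 3 in Cebpa d/d from 0 to 72 hr, and 9 and 7 from 3 to 72 hr, where 7 regulators were lower in each.

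Markers of cells known to make these enzymes moved in some of the same comparisons and not in others. Mmp2, Mmp14 and Timp2 are made by fibroblasts, of which 15 markers were measured. Their mean level over the control arrays ran from 8.62 to 8.84 (0 hr), from 8.20 to 8.44 (3 hr) and from 8.83 to 9.02 (72 hr). Over the Cebpa d/d arrays it ran from 8.67 to 8.83, from 8.46 to 8.62 and from 8.64 to 8.92. From 3 to 72 hr, 9 of the 15 rose in control and 6 in Cebpa d/d, where 11.2% and 4.88% of all genes were higher. Col1a1, Col1a2 and Col3a1, which rose in both genotypes, are also among the matrix genes counted above, so the 2 lists overlap. Against 0 hr, 2 rose by 72 hr in control and 0 in Cebpa d/d, where Mmp2 was called in both and 4.95% and 3.39% of all genes were higher. Smooth muscle markers (10 measured) ran from 9.59 to 9.70 (0 hr), 9.18 to 9.40 (3 hr) and 9.76 to 9.87 (72 hr) in control, where 3 of them fell from 0 to 3 hr and 5 rose from 3 to 72 hr, the interval in which Timp2 rose. Of all genes in control, 3.5% were called from 0 to 3 hr and 11.2% were higher from 3 to 72 hr. The part of fibroblasts or smooth muscle in the changes of Mmp2, Mmp14 and Timp2 was not tested.

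Other lung cells and heart muscle also left signal that moved between groups. Of 10 cardiac muscle markers, 6 were higher in Cebpa d/d than in control at 0 hr (median difference 2.33). Of all genes, 0.336% were called there. In Cebpa d/d 10 of the cardiac markers fell from 0 to 3 hr and 9 from 0 to 72 hr. Of all genes, 4.38% and 4.8% were called there, higher or lower. The mean of the cardiac markers in Cebpa d/d ran from 10.06 to 10.87 (0 hr), 7.92 to 8.52 (3 hr) and 7.47 to 7.86 (72 hr). Mmp2 was called in Cebpa d/d from 0 to 72 hr, and its r with the cardiac mean over the 18 arrays was -0.21. For Mmp3, lower in Cebpa d/d than in control at 0 hr without passing, that r was -0.57. This was its largest r in size with any of the marker lists, followed by -0.51 with alveolar type 1 cells. Of 10 ciliated cell markers, 8 rose from 3 to 72 hr in control and 5 in Cebpa d/d, where 11.2% and 4.88% of all genes were higher. From 0 to 72 hr, 1 rose in control and 6 in Cebpa d/d, where 4.95% and 3.39% of all genes were higher. Of 10 endothelial markers, 6 fell from 0 to 72 hr in control and 3 in Cebpa d/d. Of 7 club cell markers measured, 3 fell in that comparison in control (Cckar, Cyp2f2 and Gabrp) and 0 in Cebpa d/d. Of all genes, 7.15% and 4.8% were called there, higher or lower. The club cell mean ran from 11.68 to 12.08 (0 hr) and 10.98 to 11.12 (72 hr) in control. In Cebpa d/d it ran from 11.97 to 12.02 and from 11.05 to 11.76, the highest in replicate 1, the array that stood apart. Of 10 alveolar type 2 markers, 5 rose from 3 to 72 hr in control, the interval in which Timp2 rose, and 1 did in Cebpa d/d. Of all genes, 11.2% and 4.88% were higher there. Over the 18 arrays, which share their groups, Mmp2 correlated with the fibroblast mean at r = 0.84 and with the alveolar type 2 mean at 0.74. Mmp14 correlated with the macrophage mean at 0.84, the alveolar type 2 mean at 0.71 and the fibroblast mean at 0.66. With the club cell mean its r was -0.6. Timp2 correlated with the fibroblast mean at 0.88, the alveolar type 2 mean at 0.81, and the smooth muscle and alveolar type 1 means at 0.8 each. The part of these cells in the levels of the 9 genes was not tested.

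Macrophage markers (14 measured) ran from 7.06 to 7.27 (0 hr), 7.15 to 7.48 (3 hr) and 7.73 to 8.12 (72 hr) in control, where 7 of them rose from 0 to 72 hr in control. The Cebpa d/d arrays ran from 7.16 to 7.38 at 0 hr and 7.19 to 7.87 at 72 hr, with 0 called from 0 to 72 hr. Of all genes, 4.95% in control and 3.39% in Cebpa d/d were higher from 0 to 72 hr. The lowest Cebpa d/d 72 hr value, 7.19, belonged to replicate 1, the array that also had the lowest Timp1 (6.37) and Mmp14 (8.21) of its group. The part of macrophages in the levels of Mmp12, Mmp14 and Timp1 was not tested. Neutrophil markers (11 measured) ran from 5.99 to 6.33 (0 hr), 6.06 to 7.24 (3 hr) and 6.44 to 6.89 (72 hr) in control. In Cebpa d/d they ran from 6.05 to 6.32, 6.16 to 6.67 and 6.05 to 6.57. The control 72 hr arrays all lay above the 0 hr arrays, and of the 11 genes only Mpo was called in any time comparison, lower at 72 hr than at 3 hr in control.

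**Figure D4:**
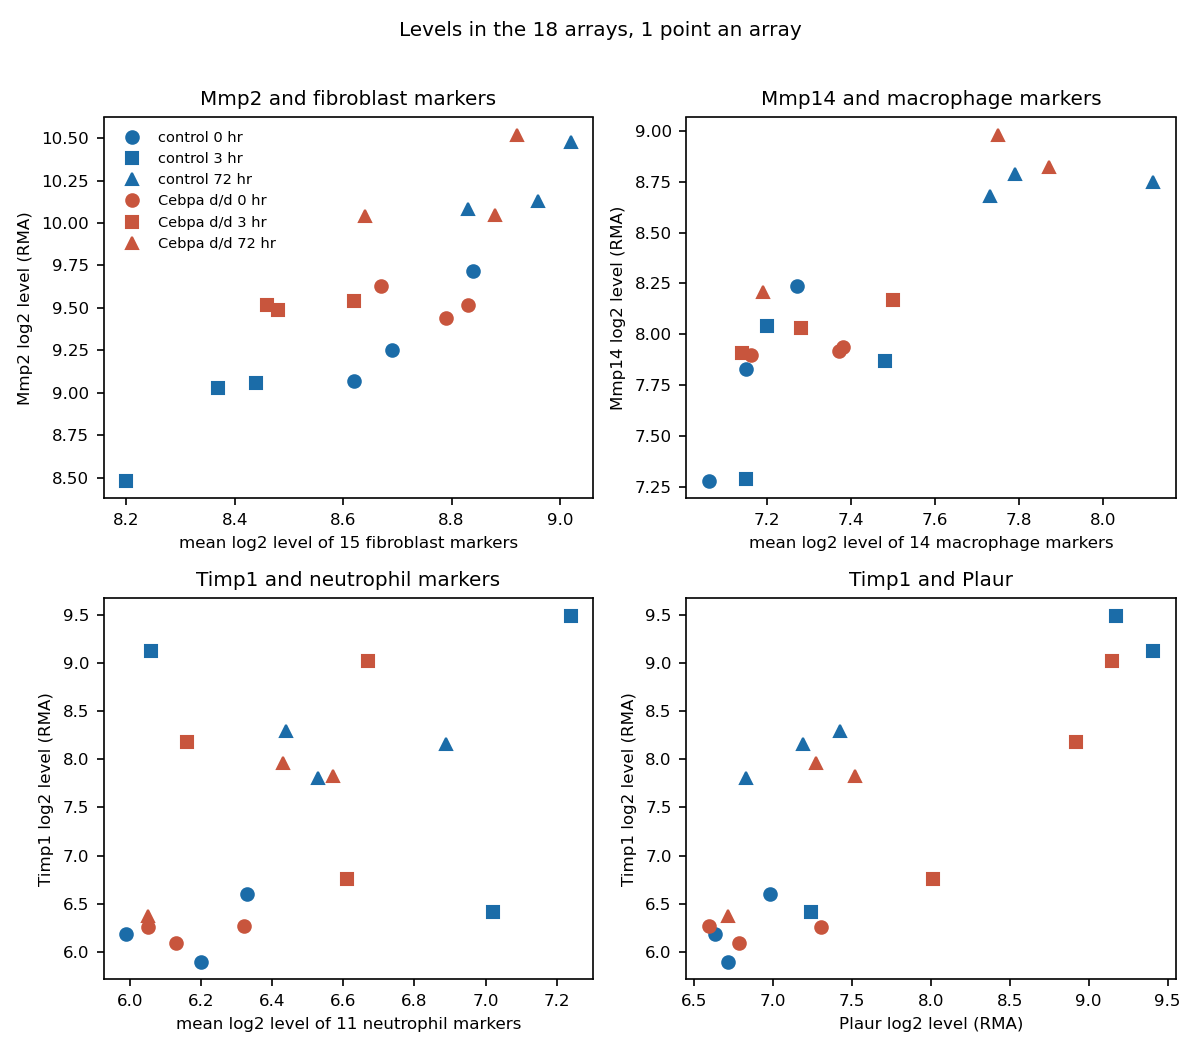
Log2 level of Mmp2, Mmp14 and Timp1 (vertical axes) against the mean log2 level of 15 fibroblast, 14 macrophage or 11 neutrophil markers, or against Plaur (horizontal axes), with 1 point an array, colour for genotype and shape for time. The 72 hr arrays have the highest Mmp2, and Cebpa d/d 72 hr replicate 1 lies among the 0 hr arrays for Timp1, at 6.37.

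The genes whose pattern over the 18 arrays was most like that of a member are given as a description, since the arrays share their groups. Mmp2 was most like Tceal9, Ppic and Fhl1 (Pearson r = 0.941, 0.935 and 0.934). Mmp14 was most like St3gal4, Mastl and Pros1 (r = 0.949, 0.929 and 0.927), Timp1 like Lmna, Lilr4b and Akr1b8 (r = 0.956, 0.952 and 0.952), and Timp2 like Myl9, Uaca and Pgm5 (r = 0.941, 0.928 and 0.916). The first gene for Mmp3 was Dnaaf3 (r = 0.863), for Mmp7 Trmt9b (r = 0.855), for Mmp9 Snap25 (r = 0.892), for Mmp12 Clec5a (r = 0.822) and for Timp3 Mef2a (r = 0.792).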

How the data were processed

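Total RNA of terminal bronchiolar epithelial cells was measured on 18 Affymetrix Mouse Gene ST arrays, in 6 groups of 3 taken from the genotype and time in the labels. The deposited table holds log2 values made by the authors with RMA, per the submitters' processing notes, with values from 2.53 to 13.93 and array medians of 6.48 to 6.65. The version, build and filters are not given in the sources used here. RMA's summary on the log2 scale shrinks differences of dim probe sets. The number of arrays limits the precision.

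Of 35557 probe sets, 21789 had 1 symbol, and the probe set with the highest mean was kept for each of 19938 genes. All 9 members had 1 such probe set. In R 4.3.3, limma 3.58.1 fitted the 6 means to the 18 arrays together (12 residual and 4.49 prior degrees of freedom, no replicate term). Benjamini-Hochberg adjustment ran over the 19938 genes in each of 12 contrasts. The contrast of the change from 3 to 72 hr between genotypes was added after the values were seen. Fits were tested on simulated data.

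The members and the lists were chosen with earlier results of these data known. All 9 members are named, with at most 4 genes that passed per related list and contrast by smallest adjusted p, the top 3 marker genes of a list by level, and the 3 genes most like each member, and any other gene named was chosen after its values were seen. Same-numbered arrays did not deviate together (correlations of -0.29 to 0.20), so the numbers were not taken to pair the arrays. Alternatives were the median scaling, the mean of probe sets, a filter on dim genes, fits on the contrast's own groups, array weights, a trended robust prior, sex as a covariate, the replicate number as a block, a threshold of unadjusted p under 0.05 with 1.5-fold change, the 2 arrays that stood apart left out together, and each array left out in turn. Upstream sequences came from RefSeq for GRCm38.p6. No scanner files were used.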

Additional observations from a re-analysis of the deposited data

How the results depend on the processing

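Over 28 alternatives, 2768 of 2988 tests of single members kept their direction and their side of the threshold, 168 differences that never passed changed sign, 20 lost a call, 32 gained one and 0 called differences reversed. The number of members called moved as follows. From 0 to 3 hr in control it was 0, and 1 (Timp2) with genes below the median level left out, 1 with array weights and 2 (Timp1 and Timp2) at an unadjusted p under 0.05 with 1.5-fold change. That threshold also gave 1 from 0 to 3 hr in Cebpa d/d, 1 (Mmp3) between genotypes at 0 hr and 2 (Mmp2 and Mmp3) at 3 hr, each against 0. From 0 to 72 hr in control it was 2, and 1 with sex as a covariate. It was 3, with Timp1 added, with array weights, in a fit of the contrast's own groups and at the unadjusted threshold. From 0 to 72 hr in Cebpa d/d it was 1, and 2 with array weights, 2 without both arrays that stood apart, 3 at the unadjusted threshold, 0 with sex as a covariate and 0 with the replicate block, where the adjusted p of Mmp2 was 0.0532. From 3 to 72 hr in Cebpa d/d it was 1, and 3 with array weights, 3 without both arrays, 2 at the unadjusted threshold and 0 with sex as a covariate. The replicate block changed no other call of a member, and 4 of 18 arrays correlated best with arrays of their own number. Leaving out each array in turn gave 0 to 2 members from 0 to 3 hr, 1 to 3 from 0 to 72 hr and 2 to 3 from 3 to 72 hr in control, 0 to 1, 0 to 2 and 0 to 2 in Cebpa d/d, and 0 to 0 in the comparisons of genotypes and the interactions. Over all genes, leaving out 1 array moved the calls from 0 to 72 hr in control from 1425 to between 614 and 1633, and the other settings to between 790 and 3133. In Cebpa d/d they moved from 958 to between 398 and 1272, and between 553 and 1981. From 0 to 3 hr they moved from 697 to between 231 and 1414, and between 55 and 993, in control. The cause was not tested. All 72 hr arrays were female, so sex and time can be separated only through the arrays of 0 and 3 hr. Mmp7, Mmp9 and Mmp12 were dim, which limits what could be detected for them.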

Other observations

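Timp4, the TIMP outside the 9 genes, read 8.10, 7.34 and 7.99 in the control 72 hr arrays and 7.26, 6.76 and 7.50 in the Cebpa d/d 72 hr arrays, so the groups overlapped in 1 array each. At 0 hr all 6 arrays lay between 7.09 and 7.52. The difference between genotypes at 72 hr was -0.64 ± 0.19 (limma, adjusted p = 0.496), and the interaction of the change from 0 to 72 hr was -0.69 ± 0.27 (adjusted p = 0.992). Neither passed.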
